A study of Mus musculus with 23 samples.

Results

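Genes of the heat shock response and of the unfolded protein response were followed across 4 groups of RNA-seq libraries made from cells labelled ILC2s (innate lymphoid cells of group 2, lymphocytes that release type 2 cytokines in tissues). The 38 genes were listed by name from their known functions, by a list drawn up with earlier results of these data known. Of these, 35 were in the deposited table of 19945 genes, and all 35 were among the 15268 genes tested. Hspa1a, Hspa8 and Hsp90aa1 were not analysed here. The 35 members fall into 7 role groups: 9 cytosolic heat shock genes, 3 mitochondrial chaperones, 9 chaperones and co-chaperones of the endoplasmic reticulum (ER), 2 lectin chaperones, 4 disulfide isomerases, 4 genes of ER-associated degradation, and 4 stress sensors and factors.

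All groups descend from male mice 8 to 10 weeks old of the B6.Cg-Tg(CAG-GFP)Smoc background, transgenic and wild-type, in which the broadly active CAG promoter drives GFP. The mice received IL-33 every 2 days for 7 days, and their lineage-negative CD25+ bone marrow and spleen cells were cultured for 14 days with IL-33 plus IL-7, and also IL-2 and IL-15. The baseline (5 libraries) came directly from that culture. Sorted cells of that culture were also given intravenously to mice 6 hours after MCAO (middle cerebral artery occlusion, which models ischemic stroke). They were recovered 1 day later from blood, or 5 days later from blood or brain, with 6 libraries in each of these groups. The labels do not say whether the libraries of a group came from separate animals, so the p-values below measure only the spread between these libraries, which may be technical. How the transferred cells were separated from the host's cells on recovery is not given in the sources used here.

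Cells hold protein folding in balance with chaperones in each compartment. When unfolded protein builds up in the cytosol, the factor HSF1 is released and binds heat shock elements in the promoters of heat shock genes. When it builds up in the ER, the sensors IRE1 (Ern1), PERK (Eif2ak3) and ATF6 let go of the chaperone BiP (Hspa5), and the factors XBP1 and ATF6 then act on ER stress response elements to raise chaperones, disulfide isomerases and the degradation machinery. Lymphocytes that divide or secrete in quantity carry a high load of ER chaperones.

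Promoter sequence shows how closely the listed genes share these elements. RefSeq windows of 300 bases (250 before to 50 after the annotated start, build GRCm38.p6) were matched by symbol for 29 of the 35 members and for 27025 genes in all. ER stress response element I, spelled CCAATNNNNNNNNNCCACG and searched on both strands, was in 8 of 29 member windows (27.6%) and in 0.137% of all genes. It contains the CCAAT and CCACG boxes, which alone were in 79.3% of member windows each, against 41.1% and 35.5% of all genes. Element II (ATTGGNCCACG) was in the windows of Dnajb11 and Herpud1, and the core TGACGTGG was in 0 of 29. Capitals mark element I in the first 8 lines and element II in the line of Herpud1, with 5 bases on either side.
Hspa5, chr2:34772020-34772048, plus strand: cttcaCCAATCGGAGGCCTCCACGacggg
Hsp90b1, chr10:86705528-86705661, minus strand: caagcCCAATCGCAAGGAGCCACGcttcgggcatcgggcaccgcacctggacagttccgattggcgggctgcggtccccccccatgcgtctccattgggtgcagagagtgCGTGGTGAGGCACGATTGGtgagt
Canx, chr11:50325795-50325823, minus strand: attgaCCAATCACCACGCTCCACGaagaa
Calr, chr8:84847070-84847098, minus strand: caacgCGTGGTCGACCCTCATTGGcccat
Pdia6, chr12:17266486-17266514, plus strand: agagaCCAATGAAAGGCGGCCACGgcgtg
Dnajc3, chr14:118937822-118937850, plus strand: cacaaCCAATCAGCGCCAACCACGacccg
Creld2, chr15:88819515-88819543, plus strand: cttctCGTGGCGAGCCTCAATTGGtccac
Syvn1, chr19:6046527-6046555, plus strand: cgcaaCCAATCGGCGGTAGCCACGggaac
Herpud1, chr8:94386372-94386392, plus strand: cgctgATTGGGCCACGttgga

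Heat shock elements are repeats of GAA units in alternating direction. A pair of units (GAANNTTC or TTCNNGAA) was in 8 of 29 member windows (27.6%, against 17% of all genes), those of Hspa1b, Hspb1, Hspd1, Hspe1, Hsph1, Dnaja1, Bag3 and Eif2ak3. A row of 3 units (GAANNTTCNNGAA or TTCNNGAANNTTC), which contains the pair, was in the windows of Hspd1, Hspe1 and Hsph1 (10.3%, against 0.662%). Hspd1 and Hspe1 lie head to head on opposite strands and share the same bases. In the lines below, capitals mark these units in the bases before the start.
Hspa1b, chr17:34959330-34959347, minus strand: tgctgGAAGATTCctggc
Hspb1, chr5:135887797-135887834, plus strand: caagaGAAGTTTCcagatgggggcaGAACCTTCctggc
Hsph1, chr5:149636357-149636374, minus strand: aatctTTCTCGAAggctc
Hspe1, chr1:55088054-55088081, plus strand: gtccgTTCTAGAACCTTCCGGAAggccc
A match describes these letters only and does not show that a factor binds there.

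Depth ran from 11.6 to 58.1 M recovered reads per library, 11.6 to 16.9 M in the 12 libraries of batch 1 and 27.8 to 58.1 M in the 11 of batch 2, batch being a label of the submitters, and every group has libraries of both. Markers did not all follow the label: the 8 ILC2 marker genes in the table summed to 0.226% of the normalized total at baseline, 0.126% in blood on day 1, 0.232% in blood on day 5 and 0.0115% in brain (range 0.00655 to 0.0153%). In brain libraries the ILC2 genes Gata3 and Klrg1 averaged 13.3 and 9.40 normalized counts, and Il1rl1 (the IL-33 receptor) had 3 reads in all baseline libraries together. Brain libraries instead held choroid plexus (2.34%), oligodendrocyte (0.978%), microglia (0.476%) and astrocyte (0.155%) markers, and blood libraries held erythroid, platelet, neutrophil and B cell markers. T cell genes summed to 0.504% at baseline, 0.109 and 0.0831% in blood on days 1 and 5 and 0.00059% in brain, and NK cell genes to 0.0214, 0.247, 0.293 and 0.00021%. "Brain" below means the libraries labelled so. In bulk RNA, fewer cells of a type and less RNA per cell cannot be told apart. Blood day 1 replicates 2 and 6, brain replicate 2 and baseline replicate 5 stood apart from their groups (median correlation with their own group 0.773, 0.836, 0.795 and 0.852). Baseline replicates 1 to 3, and brain replicates 1 and 3, were far closer to each other (chi-square per degree of freedom 4.19 to 12.5) than the other pairs within a group (45 to 1300).

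In blood, most ER and mitochondrial chaperones were lower than in the culture baseline, while Hspa1b and Hsf1 were higher. On day 1, 2 members rose, 16 fell and 17 did not pass the test (limma, Benjamini-Hochberg adjusted p under 0.05 over all genes tested). Of all genes tested in that comparison 32.1% were called, 18.1% higher and 14.0% lower. The members' median log2 difference was -0.98, against 0.04 over all genes. On day 5, again 2 members rose, 16 fell and 17 did not pass, with 31.1% of all genes called, 19.6% higher and 11.4% lower, and medians of -1.09 for the members and 0.14 for all genes. With equal library totals as the scaling, the split was 3 higher and 14 lower on day 1 and 4 higher and 12 lower on day 5, and the median over all genes on day 5 moved to 0.45. Within batches 1 and 2 the members' median was -1.35 and -0.28 on day 1 and -1.65 and -0.50 on day 5, and 22 and 5 members were called on day 1 and 23 and 8 on day 5. With the closest libraries averaged, the day 1 median was -0.65 and 11 members were called, 0 of them higher. Fitted on only the groups compared, 0 members were higher and 12 lower on day 1. On day 5 that fit called 3 higher and 20 lower. Both comparisons share the 5 baseline libraries. Blood libraries also carried markers of other blood cells: all 5 platelet genes and both erythroid genes in the table rose on each day. The erythroid sum ran from 0.352 to 8.33% on day 1 and from 0.265 to 3.69% on day 5, against 0.00104 to 0.408% at baseline. Of 5 neutrophil genes, 4 rose and 1 fell on day 1, and 4 rose and 0 fell on day 5. The neutrophil sum ran from 0.0332 to 0.252% on day 1 and from 0.143 to 2.24% on day 5, against 0.00363 to 0.0178% at baseline. The part of these markers in the members' differences was not tested.

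Between blood day 5 and blood day 1, limma called 0 of 35 members in either direction, and 0.105% of all genes (0.0982% higher and 0.00655% lower). At an unadjusted p under 0.05, 2 members were higher and 5 lower on day 5, and edgeR called 0 with either of 2 scalings. The members' median was -0.24 and the median over all genes 0.12. Fitted on the 2 blood groups alone, 1 member was called, Manf at -0.89 (adjusted p = 0.0358 in limma).

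In brain against the baseline, the cytosolic members Hspa1b, Hspb1, Hsph1 and Bag3 rose, and members of 4 other role groups fell. In all, 4 members rose, 6 fell and 25 did not pass, while 49.2% of all genes were called, 37.5% higher and 11.7% lower. The members' median log2 difference was -0.27 and that of all genes was 0.67. The sign of the members' median turned with the batch: it was -0.68 in batch 1, with 15 members called, and 0.075 in batch 2, with 5 called. With edgeR and TMM scaling the median over all genes was 0.22 and that of the members -0.70, and 3 members were higher and 15 lower. Without the 4 libraries that stood apart, 5 members were higher and 14 lower. Against blood on day 5, brain had 18 members higher and 0 lower (1 lower at an unadjusted p under 0.05), and 17 did not pass. Of all genes, 47.9% were called in that comparison, 33.6% higher and 14.3% lower, with a median of 0.47 against 0.93 for the members. The split depended on the scaling: it was 11 higher and 3 lower with equal library totals and 12 higher and 3 lower with edgeR and TMM scaling, where the medians over all genes were 0.08 and 0.14. Hsf1 and Eif2ak3 were lower in brain under both scalings, Herpud1 with equal library totals and Syvn1 with TMM. Hspa9, Hsph1, Hsp90ab1, Hsp90b1, Manf and Pdia4 were called in neither, with differences of 0.36 to 0.76 and 0.40 to 0.78.

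**Figure D1:**
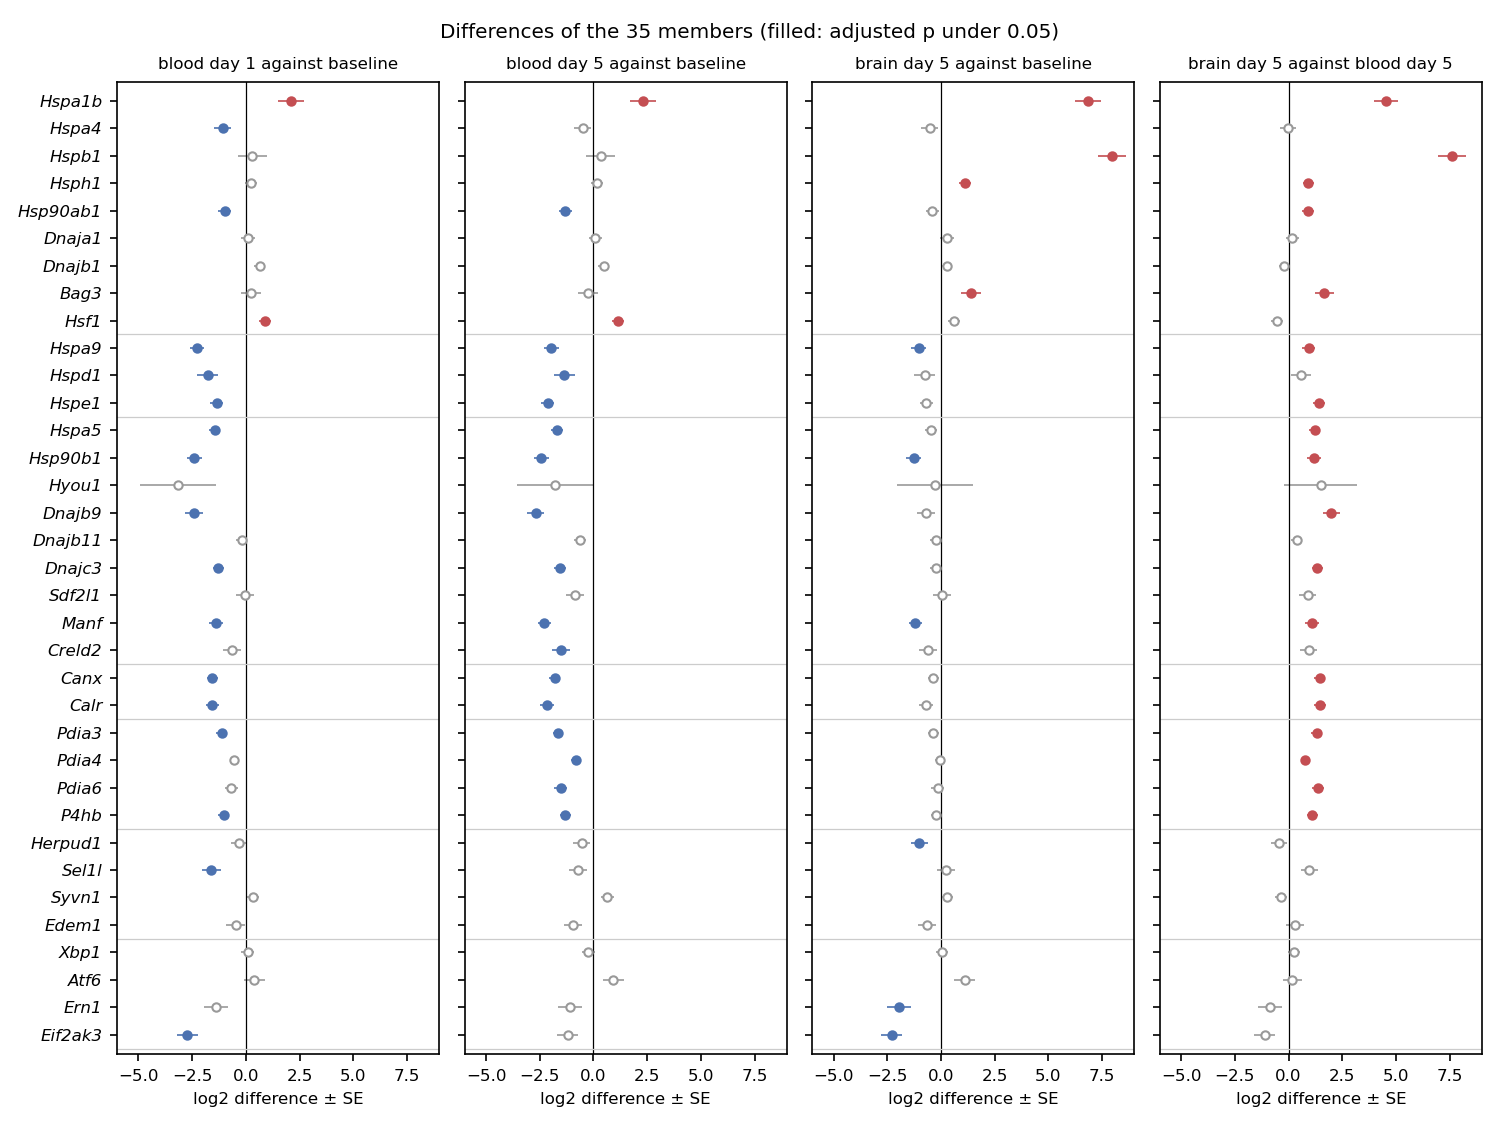
Log2 difference (x axis, with its standard error as a bar) of each of the 35 members in 4 comparisons, in rows ordered by role group, with filled points for adjusted p under 0.05 (red higher, blue lower) and open grey points for the rest. Blue points mark all 3 mitochondrial and both lectin rows in both blood panels, and of the 9 ER chaperone rows 5 on day 1 and 6 on day 5. In the brain panels Hspa1b and Hspb1 lie far to the right, at 6.84 and 7.95 against the baseline.

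Libraries of the brain group also held all 5 choroid plexus, all 5 oligodendrocyte, all 5 astrocyte and all 5 microglia markers above the baseline. Per library, the choroid plexus sum ran from 0.849 to 3.58% in brain against 0 to 0.00102% at baseline and 0.000818 to 0.0177% in blood on day 5. For oligodendrocytes it ran from 0.784 to 1.32% against 0.0159 to 0.0442% and 0.0673 to 0.177%. Immediate early genes, which also rise during tissue dissociation, rose in 9 of 10 cases over the baseline, and their sum was 0.686 to 1.16% in brain, 0.276 to 0.682% in blood on day 5 and 0.0492 to 0.165% at baseline. The ILC2 genes fell in 4 of 7 tested over the baseline and rose in 3. These markers moved with each brain result that follows, and their part in it was not tested.

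Hspa1b, the stress-inducible cytosolic HSP70 (chr17:34956436-34959238, minus strand), was close to silent in culture. Baseline libraries held 18.1, 7.31, 6.60, 11.5 and 7.39 normalized counts. Blood libraries held 10.6 to 142 (median 49.6) on day 1 and 35.3 to 91.2 (median 46.2) on day 5, and brain libraries held 731 to 1966 (median 1280.3). Every brain library was above every other library, every day 5 blood library was above the baseline, and blood day 1 replicate 3 lay within the baseline range. The log2 difference from baseline was 2.09 (SE 0.593, adjusted p = 0.00916) in blood on day 1, 2.3 (0.593, 0.00421) on day 5 and 6.84 (0.593, 1.3e-09) in brain, and brain exceeded blood on day 5 by 4.54 (0.564, 4.14e-07), all by limma. Within batches 1 and 2 the brain differences from baseline were 7.24 and 6.44. The blood calls were lost within either batch alone (2.28 in batch 1 and 2.32 in batch 2 on day 5, adjusted p = 0.0567 and 0.104). In limma the day 1 call was also lost in a fit of only those groups (2.06, 0.0832). It was lost with the closest libraries averaged as well (2.04, 0.0527). Hspa1b and its neighbour copy Hspa1a are near-identical, so the counting could have split reads between them and its level is uncertain.

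Hspb1, a small heat shock protein that holds unfolded proteins for refolding (chr5:135887919-135889563, plus strand), was read almost solely in brain libraries. It had 4 reads in all 5 baseline libraries together, 6 in all of blood day 1, 16 in all of blood day 5 and 3401 in all of brain. Normalized counts in brain were 480, 271, 356, 621, 323 and 456, while no other library exceeded the 12.4 of blood day 1 replicate 2. The ratio of pooled read rates was 496 for brain over baseline (95% exact counting interval 194 to 1820) and 232 over blood on day 5 (143 to 407), intervals that cover counting error only. The log2(value + 1) scale understates changes of low genes. On it, brain exceeded the baseline by 7.95 (SE 0.668, adjusted p = 7.82e-10 in limma) and blood on day 5 by 7.61 (0.635, 7.21e-10). Only the brain libraries and blood day 1 replicate 2 reached the 10 normalized counts that the filter for the test asks for. Hspb1 thus entered the test through its brain values, and these p-values are no separate support for them. Neither blood group differed from the baseline beyond the spread (0.31 and 0.34, adjusted p = 0.777 and 0.768).

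Hsph1, the HSP110 that exchanges nucleotide on HSP70, followed in brain at a smaller size. Its values were 1226, 1138, 1043, 657 and 1233 at baseline, 726 to 1758 (median 1224) in blood on day 1, 751 to 1630 (median 1223) on day 5 and 1362 to 3410 (median 2277) in brain. Brain libraries all exceeded the baseline, and overlapped both blood groups. The log2 difference was 1.10 (SE 0.282, adjusted p = 0.00218) over the baseline and 0.92 (0.268, 0.0064) over blood on day 5, the latter 0.50 (0.143) with edgeR and TMM scaling. Bag3, a co-chaperone that ties HSP70 to small heat shock proteins and autophagy, had 273, 248, 248, 633 and 321 at baseline and 515 to 1350 (median 854) in brain. Baseline replicate 4 lay within the brain range. Bag3 rose by 1.38 (SE 0.461, adjusted p = 0.0157) over the baseline and by 1.65 (0.439, 0.00316) over blood on day 5, where values ran from 157 to 367. The first of these was 1.91 in batch 1 and 0.68 in batch 2, and was not called in batch 2 alone (0.391) or with edgeR and TMM scaling (0.97, 0.0894). Batch 2 alone called 3 members higher in brain than at baseline, Atf6 among them. Hspa1b, Hspb1 and Hsph1 thus did not all keep their calls there, and Hsph1 had the smallest difference of these.

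**Figure D2:**
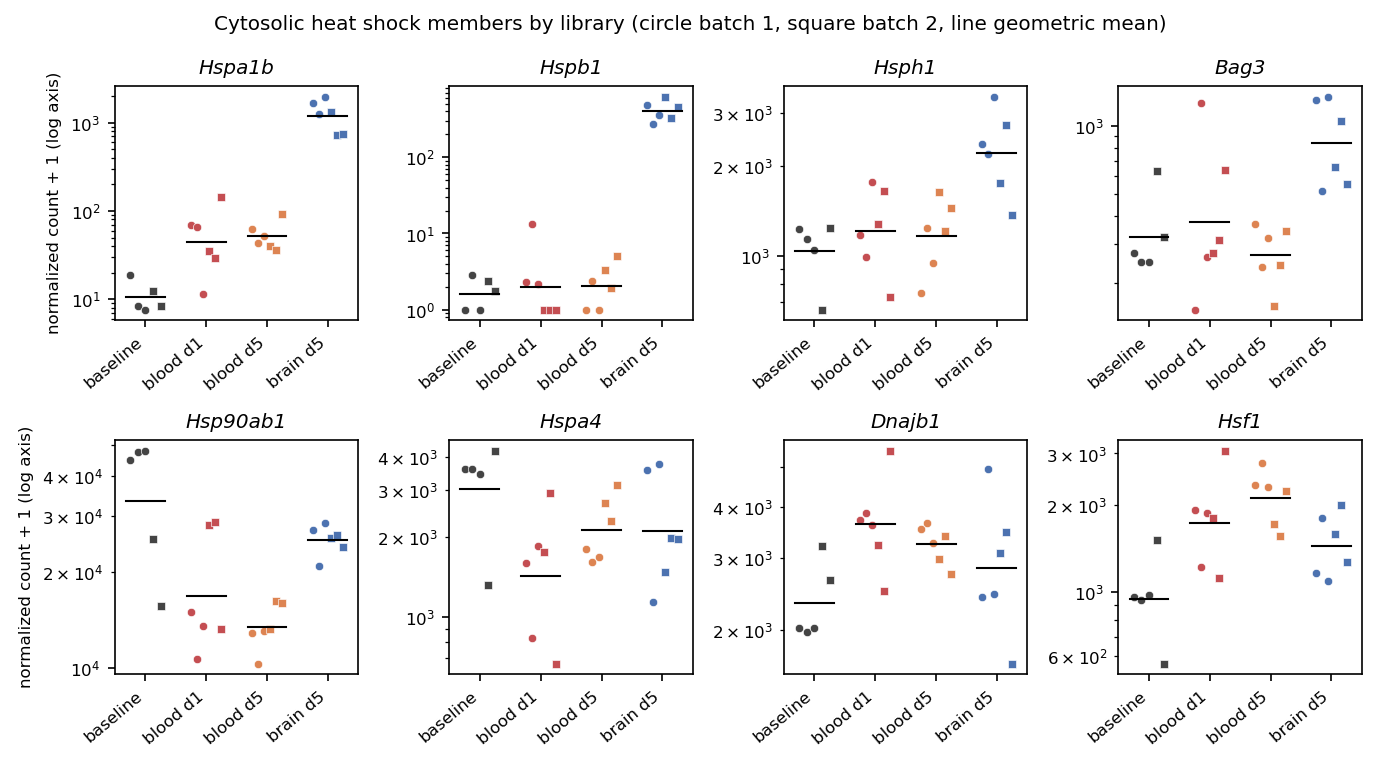
Normalized count + 1 on a log axis (y) of 8 cytosolic members in each library by group (x), circles for batch 1, squares for batch 2 and a line at the geometric mean. Brain libraries stand above all others for Hspa1b and Hspb1, and baseline batch 1 libraries stand above batch 2 for Hsp90ab1.

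Hsf1, the factor that drives the heat shock response, had 960, 939, 976, 1509 and 565 normalized counts at baseline, 1118 to 3067 (median 1836) in blood on day 1 and 1560 to 2781 (median 2259) on day 5. All day 5 libraries exceeded the baseline, whereas day 1 overlapped it. Hsf1 rose by 0.88 (SE 0.278, adjusted p = 0.0188) on day 1 and by 1.16 (0.278, 0.00229) on day 5. The day 1 call was lost without baseline replicate 5 (0.67, 0.0695) and without the 4 libraries that stood apart (0.61, 0.0707). In limma it was also lost in a fit of only those groups (0.87, 0.0863) and with the closest libraries averaged (0.88, 0.0776). In batch 2 alone it was lost too (0.99, 0.222). In brain Hsf1 was at 1091 to 1989, a difference of 0.61 from the baseline that did not pass (0.0727). That difference passed without baseline replicate 4 (0.81, 0.0199).

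The abundant constitutive HSP90, Hsp90ab1, fell in blood and was uneven within the baseline. Its values were 45118, 47772 and 48150 in the batch 1 baseline libraries and 25430 and 15638 in those of batch 2. In blood it ran from 10663 to 28855 (median 14291) on day 1 and from 10328 to 16301 (median 13195) on day 5, and in brain from 20886 to 28644 (median 25862). The lowest baseline library lay within every other group's range except that of brain. Hsp90ab1 fell, at -0.98 (SE 0.298, adjusted p = 0.0144) on day 1 and at -1.31 (0.298, 0.0015) on day 5, and was 0.905 (0.283, 0.0107) higher in brain than in blood on day 5. Within batches the day 1 difference was -1.86 in batch 1 and 0.15 in batch 2, and the day 5 difference was -1.97 and -0.395. In limma the day 1 call was lost in batch 2 alone (0.884) and with equal library totals (-0.88, 0.103). It was also lost in a fit of only those groups (-0.97, 0.105) and with the closest libraries averaged (-0.62, 0.218). Hspa4, another HSP110-type exchange factor, had 3607, 3609, 3460, 1319 and 4222 at baseline and 663 to 2932 (median 1668) in blood on day 1, where baseline replicate 4 lay within the blood range. It fell there by 1.08 (SE 0.392, adjusted p = 0.038). Leaving out any of baseline replicates 1, 2, 3 and 5 or blood day 1 replicates 1, 2 and 6 ended that call (adjusted p 0.0501 to 0.0937), as did leaving out the 4 libraries that stood apart (-0.44, 0.365). The J-domain co-chaperones Dnaja1 and Dnajb1, which hand clients to HSP70, passed in no comparison by limma on all libraries. Dnaja1 ran from 1690 to 3788 at baseline and from 2006 to 3838 in brain, with every group overlapping, and was called higher in blood on day 1 without the 4 libraries that stood apart (0.74, 0.0042). Dnajb1 was nearest, at 0.64 in blood on day 1 (adjusted p = 0.0514), and was called there without baseline replicate 4 (0.77, 0.0226) or blood day 1 replicate 5 (0.74, 0.0259), without batch in the model (0.0428), and with equal library totals on both days (0.74 and 0.0389, 0.84 and 0.0177).

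All 3 mitochondrial chaperones fell in blood on both days. Hspa9, the mitochondrial HSP70, had 7028, 7951, 7334, 5004 and 10880 normalized counts at baseline, 565 to 2877 (median 2021) in blood on day 1, 1333 to 2374 (median 2011) on day 5 and 2846 to 5250 (median 3470) in brain. Both blood groups lay wholly below the baseline. Hspa9 fell, at -2.27 (SE 0.336, adjusted p = 1.43e-05) on day 1, at -1.96 (0.336, 7.59e-05) on day 5 and at -1.04 (0.336, 0.0129) in brain, with -2.07 and -2.47 within batches 1 and 2 on day 1. It was 0.93 higher in brain than in blood on day 5 (0.0199), a call lost without blood day 5 replicate 2 (0.82, 0.0521) or brain replicate 5 (0.81, 0.0540).

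The chaperonin HSP60 (Hspd1) and its lid HSP10 (Hspe1) overlap at their 5′ exons on opposite strands, and the strand setting of the counting is not given in the sources used here. Hspd1 had 4127, 4396, 3938, 1987 and 3552 at baseline, 213 to 2337 (median 1732) in blood on day 1 and 1046 to 1803 (median 1362) on day 5. Its day 1 libraries reached from far below the baseline into its range. Hspd1 fell, at -1.77 (SE 0.489, adjusted p = 0.00766 in limma) on day 1 and at -1.35 (0.489, 0.0391) on day 5. The day 1 call was lost in a fit of only those groups (-1.74, 0.0809), with the closest libraries averaged (-1.6, 0.0676) and in batch 2 alone (-1.49, 0.246). A replicate block ended the day 5 call (0.0731), as did dropping the low-value filter (0.0524). Equal library totals (-0.985, 0.224), averaging the closest libraries (-1.18, 0.181) and batch 2 alone (-0.733, 0.586) ended it as well. So did leaving out any of baseline replicates 1, 2, 3 and 5 (0.0669 to 0.0833). The same held for blood day 5 replicates 1, 2, 3 and 6 (0.0561 to 0.0797). Hspe1 had 2896, 3489, 3130, 831 and 2347 at baseline, 688 to 1096 (median 928) on day 1 and 378 to 593 (median 576) on day 5. Baseline replicate 4 lay within the day 1 range, and day 5 was below the whole baseline. Hspe1 fell, at -1.36 (SE 0.301, adjusted p = 0.00124 in limma) and at -2.13 (0.301, 7.42e-06). The day 1 call was lost in batch 2 alone (-0.48, 0.527). In brain, at 1081 to 1950, Hspe1 was 1.43 (0.286, 0.000212) above blood on day 5. Against the baseline Hspe1 in brain was at -0.70 (0.0596 in limma). It was called lower there by edgeR (-1.17 and 0.00317 with TMM scaling, -0.82 and 0.0231 with the deposited size factors), with a replicate block (-0.76, 0.047), without batch in the model (0.0496), and without baseline replicate 4 (-1.11, 0.000256) or brain replicate 2 (0.047) or 6 (0.0406). Pseudogene copies of Hspd1, Hspe1 and Hspa9 exist, so some of their reads may be shared.

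ER chaperones made up 0.412% ± 0.0844 of the normalized total at baseline (SD, n = 5), 0.182% ± 0.0788 in blood on day 1 (n = 6), 0.145% ± 0.0193 on day 5 (n = 6) and 0.242% ± 0.0271 in brain (n = 6). Of the 9 genes, 5 fell on day 1, 6 fell on day 5, and 2 fell in brain, while 5 were higher in brain than in blood on day 5. Hsp90b1, the ER HSP90 (GRP94; chr10:86690209-86705509), was low in all 3 collected groups. It had 30560, 33178, 31202, 19487 and 33302 normalized counts at baseline, 1974 to 11728 (median 7279) in blood on day 1, 4389 to 5963 (median 5501) on day 5 and 9643 to 14780 (median 11776) in brain. The baseline libraries were above all others and brain was above blood on day 5. Hsp90b1 fell, at -2.40 (SE 0.345, adjusted p = 9.87e-06), at -2.43 (0.345, 7.9e-06) and at -1.27 (0.345, 0.00372), with -2.49 and -2.25 within the batches on day 1 and -2.62 and -2.18 on day 5. Brain exceeded blood on day 5 by 1.16 (0.328, 0.0051), and by 0.78 (0.0685) with edgeR and TMM scaling.

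BiP (Hspa5; chr2:34771970-34777547), the ER HSP70 that also restrains the stress sensors, had 37186, 37745, 36568, 27580 and 38759 at baseline. Blood on day 1 held 6223 to 20988 (median 14897.5), blood on day 5 held 9120 to 12326 (median 11174) and brain held 16593 to 38288 (median 27992). Both blood groups lay below the baseline, and brain reached into it. Hspa5 fell, at -1.45 (SE 0.268, adjusted p = 0.000194) and at -1.69 (0.268, 2.95e-05), nearly alike in both batches (-1.47 and -1.40, then -1.69 and -1.67), and brain exceeded blood on day 5 by 1.22 (0.255, 0.000327). Dnajb9, a J-domain partner of BiP that is induced through XBP1, had 2490, 1978, 1869, 1168 and 4654 at baseline, 257 to 898 (median 373) on day 1, 233 to 491 (median 354) on day 5 and 462 to 2505 (median 1456) in brain. It was lower in every blood library than in any baseline library. Dnajb9 fell, at -2.42 (SE 0.408, adjusted p = 6.92e-05) and at -2.69 (0.408, 1.82e-05), the furthest of the called ER chaperones, and was 1.98 (0.388, 0.000165) higher in brain than in blood on day 5.

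Manf, a secreted ER-resident protein released under calcium loss, split the baseline by batch: 9465, 11262 and 10950 in batch 1 and 6286 and 2755 in batch 2. It had 1977 to 3940 (median 2867) on day 1, 1069 to 2030 (median 1580) on day 5 and 2427 to 4740 (median 3068) in brain. Baseline replicate 5 lay among the day 1 and brain libraries. Manf fell, at -1.39 (SE 0.324, adjusted p = 0.00201), at -2.28 (0.324, 8.03e-06) and at -1.19 (0.324, 0.00366), but within batch 2 the differences were -0.13, -1.15 and -0.23 against -2.34, -3.10 and -1.85 in batch 1. An exon of Rbm15b overlaps Manf on the same strand, and their reads may be shared. Dnajc3, the PERK-pathway co-chaperone p58IPK, ran from 6138 to 7709 at baseline, from 1270 to 5021 on day 1 and from 1895 to 2764 on day 5, with no overlap on either day. It fell, at -1.28 (SE 0.269, adjusted p = 0.000769 in limma) and -1.57 (0.269, 7.77e-05). The day 1 call was lost in batch 2 alone (-1.06, 0.176). At 4903 to 7084 in brain, Dnajc3 was 1.33 above blood on day 5 (0.000137).

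Creld2, a disulfide-handling protein of the ER, passed against the baseline on day 5, at -1.52 (SE 0.417, adjusted p = 0.00675). Its baseline held 5817, 6232, 6489, 7449 and 1099, and blood on day 5 held 1324 to 2437 (median 1507). Without baseline replicate 5 it was called on day 1 as well (-1.24, 0.00347) and in brain (-1.18, 0.00269), and edgeR with TMM scaling called it in brain too (-1.08, 0.0343). The day 5 call was lost with equal library totals (-1.16, 0.0644) and with the closest libraries averaged (-1.22, 0.0773). Hyou1, the ER exchange factor GRP170, was listed at 4854, 5648 and 5426 in the batch 1 baseline libraries, 533 in replicate 4 and 0 in replicate 5. Blood held 0 to 440 (median 108) on day 1 and 44.7 to 599 (median 171) on day 5. Its differences of -3.17 (SE 1.78, adjusted p = 0.185) and -1.77 (0.511) did not pass in limma. By edgeR on the recovered reads Hyou1 was called lower on both days, at -4.40 on day 1 (0.0266 with TMM scaling, 0.0289 with the deposited size factors) and at -3.87 and -3.86 on day 5 (0.0443 and 0.0478). In limma the differences became -5.73 (0.00153) and -4.34 (0.0123) without baseline replicate 5, and -4.61 (0.000276) and -4.03 (0.000345) without the 4 libraries that stood apart. Within batch 1 they were -8.18 and -5.76, and within batch 2 3.33 and 3.69. Dnajb11 and Sdf2l1, a BiP co-chaperone and its partner in the ER, passed in none of the 5 comparisons by limma on all libraries, at -0.63 (0.0727) and -0.84 (0.140) in blood on day 5, and both were called there without baseline replicate 5 (-0.83 and 0.0173, -1.35 and 0.00584). Between brain and blood on day 5, Sdf2l1 was called higher in brain with a replicate block (0.88, 0.0457), by edgeR with the deposited size factors (1.02, 0.0351), with the closest libraries averaged (1.07, 0.0398), and without brain replicate 1 (1.08, 0.0342) or 3 (1.08, 0.0345).

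**Figure D3:**
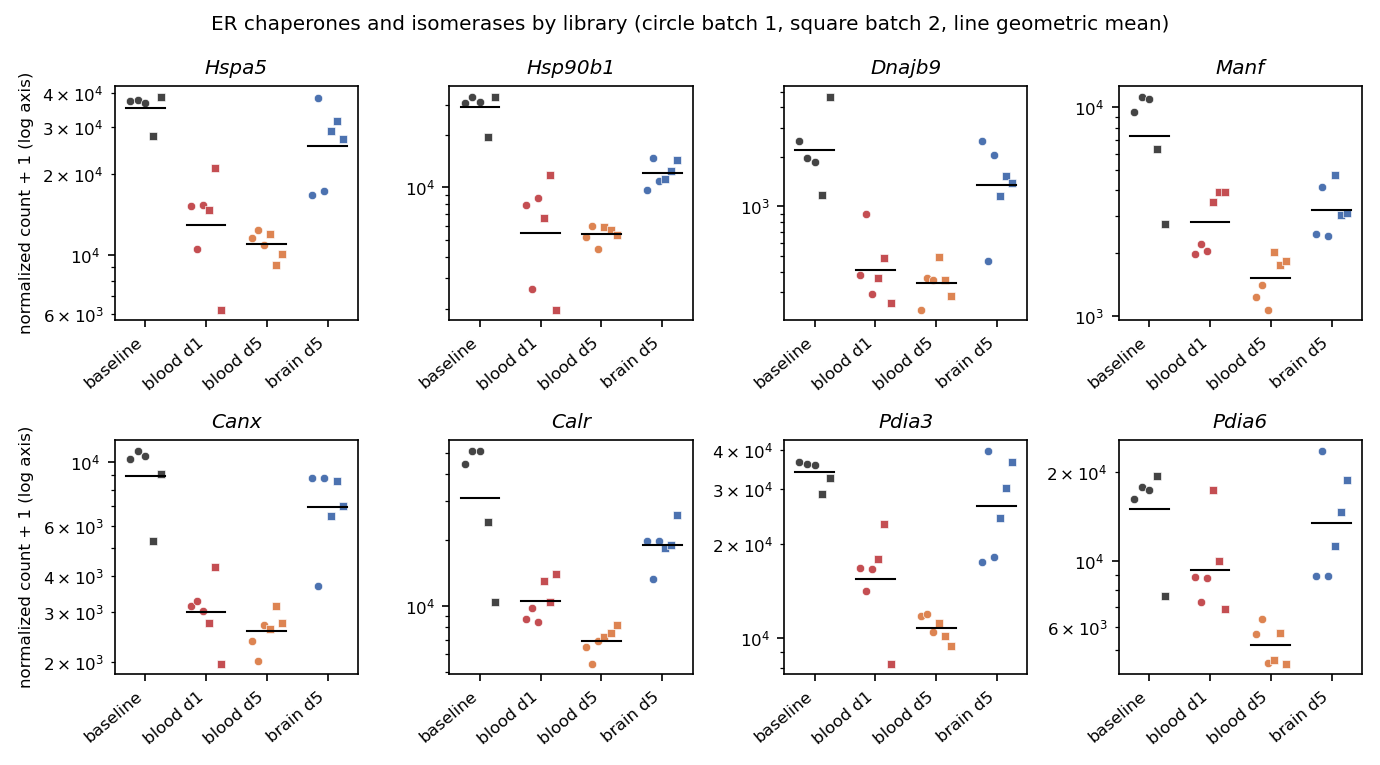
Normalized count + 1 on a log axis (y) of ER chaperones, lectin chaperones and isomerases in each library by group (x), circles for batch 1, squares for batch 2 and a line at the geometric mean. For Hsp90b1 and Canx the blood libraries lie below every baseline library, and for Calr baseline replicate 5 (10350) lies among them.

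The lectin chaperones Canx and Calr, which hold newly made glycoproteins in the ER, fell in blood on both days and were higher in brain than in blood on day 5. Canx, which is anchored in the membrane, had 10252, 10961, 10529, 5287 and 9116 at baseline, 1972 to 4303 (median 3078) on day 1, 2013 to 3128 (median 2644) on day 5 and 3693 to 8812 (median 7813) in brain. Brain replicate 2, at 3693, was low in its group, and both blood groups were below the baseline. Canx fell, at -1.57 (SE 0.252, adjusted p = 3.79e-05) and at -1.80 (0.252, 6.58e-06), and brain exceeded blood on day 5 by 1.44 (0.240, 2.43e-05). Calr, which is soluble (chr8:84841850-84846934), had 44340, 51100, 51062, 24206 and 10350 at baseline, 8459 to 13940 (median 10068) on day 1, 5427 to 8193 (median 7048) on day 5 and 13257 to 26008 (median 19345) in brain. Day 5 was below the whole baseline, and day 1 overlapped baseline replicate 5. Calr fell, at -1.56 (SE 0.317, adjusted p = 0.000556) and at -2.16 (0.317, 1.16e-05), and brain exceeded blood on day 5 by 1.46 (0.302, 0.000294). Batch 1 gave -2.45 and -2.97 for the falls and batch 2 -0.36 and -1.05. Against the baseline, Calr in brain did not pass in limma (-0.70, 0.0716), and was called lower without baseline replicate 5 (-1.14, 0.000317) and by edgeR (-1.30 and 0.0024 with TMM scaling, -0.91 and 0.0245 with the deposited size factors).

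Disulfide isomerases form and reshuffle disulfide bonds in secreted proteins. All 4 fell in blood on day 5, 2 of them on day 1 as well, none passed in brain against the baseline, and all 4 were higher in brain than in blood on day 5. Pdia3, which works with the lectin chaperones, had 36796, 36179, 35881, 28867 and 32708 at baseline, 8268 to 23177 (median 16703) on day 1, 9408 to 11928 (median 10824) on day 5 and 17542 to 39890 (median 27228) in brain. No blood library reached the baseline. Pdia3 fell, at -1.13 (SE 0.248, adjusted p = 0.0011 in limma) and at -1.65 (0.248, 1.51e-05). The day 1 call was lost in batch 2 alone (-1.02, 0.117). Pdia3 was 1.30 (0.236, 7e-05) higher in brain than in blood on day 5. An exon of Catsper2 overlaps Pdia3 on the other strand. P4hb, the founding isomerase, had 25583, 24915, 24507, 13478 and 11109 at baseline, 7071 to 17551 (median 8267) on day 1 and 5635 to 9600 (median 7854) on day 5. Day 1 replicate 6 was the highest of its group and overlapped the baseline. P4hb fell, at -1.04 (SE 0.259, adjusted p = 0.00343) and at -1.32 (0.259, 0.000334), with -1.59 and -0.28 within the batches on day 1 and -1.99 and -0.44 on day 5. Pdia6 fell by 1.53 (SE 0.296, adjusted p = 0.000303) on day 5, from 7652 to 19345 down to 4506 to 6372, and its day 1 difference of -0.68 (0.0845) passed without baseline replicate 5 (-0.96, 0.0123) or blood day 1 replicate 4 (-0.85, 0.0273). Pdia4 ran from 4546 to 8587 at baseline and from 3357 to 4940 on day 5, and fell, at -0.82 (0.222, 0.00605), and at -0.46 (0.249) with equal library totals, where it was not called.

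Genes of ER-associated degradation send misfolded proteins to the proteasome. Of the 4, 1 fell on day 1, 0 passed in blood on day 5, 1 fell in brain and 0 passed between brain and blood on day 5 by limma on all libraries. Sel1l, the adaptor of the ubiquitin ligase, had 3668, 3306, 3359, 3287 and 3212 at baseline, 249 to 2149 (median 1703) on day 1, 1294 to 2573 (median 2159) on day 5 and 1968 to 5076 (median 4375) in brain. Blood libraries of both days lay below the narrow baseline. Sel1l fell by 1.60 (SE 0.422, adjusted p = 0.0056 in limma) on day 1. That call was lost in a fit of only those groups (-1.56, 0.0552). It was also lost within batch 1 (-1.35, 0.0534) and within batch 2 (-1.82, 0.107) alone. The day 5 difference of Sel1l, -0.73 (0.212), did not pass. It passed in a fit of only those groups (-0.75, 0.0083) or without the 4 libraries that stood apart (-0.75, 0.00255). Sel1l was called higher in brain than in blood on day 5 with a replicate block (0.95, 0.0297), by edgeR with the deposited size factors (0.99, 0.0313), without batch in the model (0.0479), and without brain replicate 2 (1.17, 0.0208). Syvn1, the ligase itself, was at 0.31 and 0.64 in blood, and neither passed (0.449 and 0.0986). In brain it was called lower than in blood on day 5 by edgeR with TMM scaling (-0.77, 0.024). Herpud1, a stress-induced ER membrane protein, had 7147, 6787, 6850, 25900 and 9058 at baseline and 2648 to 8247 (median 5404) in brain. It fell by 1.01 (SE 0.381, adjusted p = 0.032) in brain, and was not called without baseline replicate 4 (-0.59, 0.160), brain replicate 1 (0.0869) or brain replicate 3 (0.0887). Against blood on day 5 it was called lower in brain with equal library totals (-0.86, 0.0181). Edem1, which marks glycoproteins for disposal, was at 9036 to 10744 at baseline and 4210 to 6228 in blood on day 5, without overlap, yet at -0.96 its adjusted p was 0.0922, and 0.000621 in a fit of only those groups. Blood day 1 replicate 2 held 34694 against 4477 to 7077 in the other day 1 libraries, and without it Edem1 was called on day 1 (-0.99, 0.00965).

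Among the sensors, Eif2ak3 fell in blood on day 1 and in brain, Ern1 fell in brain, and Xbp1 and Atf6 passed in no comparison by limma on all libraries. Eif2ak3 (PERK; chr6:70844515-70905245), the kinase that slows translation under ER stress, had 2677, 2406, 2535, 756 and 3715 at baseline. Blood on day 1 held 421, 96.0, 388, 348, 353 and 603, blood on day 5 held 835, 706, 712, 1328, 1384 and 910, and brain held 773, 303, 849, 255, 763 and 174. Day 1 was below the baseline and below day 5 in every library, and day 5 and brain overlapped baseline replicate 4. Eif2ak3 fell, at -2.73 (SE 0.493, adjusted p = 0.000156 in limma) on day 1 and at -2.30 (0.493, 0.000394) in brain. The day 1 call was lost in batch 2 alone (-1.99, 0.0968). On day 5 the difference of Eif2ak3, -1.19, did not pass in limma (0.0719). It was called lower by edgeR (-1.28 and 0.0377 with TMM scaling, -1.33 and 0.0347 with the deposited size factors), in a fit of only those groups (-1.20, 0.0358) and without baseline replicate 4 (-1.62, 0.0125). The difference of 1.54 between day 5 and day 1 did not pass (0.394). Against blood on day 5, Eif2ak3 in brain was at -1.12 (0.0545 in limma). It was called lower with a replicate block (-1.11, 0.0414), without batch in the model (0.0476), with equal library totals (-1.52, 0.0341), by edgeR with TMM scaling (-1.35, 0.0152), and without brain replicate 1 (-1.29, 0.0346), 3 (-1.32, 0.0293) or 5 (-1.28, 0.0374).

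Ern1 (IRE1), the sensor that splices Xbp1 RNA, had 904, 875, 852, 494 and 389 at baseline. Blood on day 1 held 141, 207, 158, 344, 742 and 264, blood on day 5 held 184, 172, 194, 478, 659 and 548, and brain held 439, 54.5, 411, 105, 87.8 and 312. Each group overlapped the baseline. Ern1 fell by 1.96 (SE 0.576, adjusted p = 0.00663) in brain, while -1.39 (0.0701) and -1.09 (0.164) in blood did not pass. On day 1 it was called without baseline replicate 5 (-1.67, 0.0383) or blood day 1 replicate 5 (-1.65, 0.0345). Within batch 1 the blood differences were -2.39 and -2.25, and within batch 2 -0.11 and 0.34. Xbp1, whose spliced RNA encodes the active factor, had 7144, 6687, 6806, 16642 and 4831 at baseline, and 5066 to 9606, 4429 to 8762 and 5280 to 13005 in blood on day 1, blood on day 5 and brain. Its differences from the baseline were 0.09, -0.23 and 0.04 (adjusted p = 0.873, 0.615 and 0.937), and gene-level counts do not separate its spliced and unspliced forms. Atf6, the membrane-bound factor, had 650, 623, 609, 263 and 170 at baseline and 285 to 1418 (median 1164) in brain. Its difference of 1.10 in brain did not pass (0.0645), and was 0.34 within batch 1 and 2.17 within batch 2, where it was called (0.00583). It was called without baseline replicate 1 (1.27, 0.0473) or brain replicate 2 (1.45, 0.0101).

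**Figure D4:**
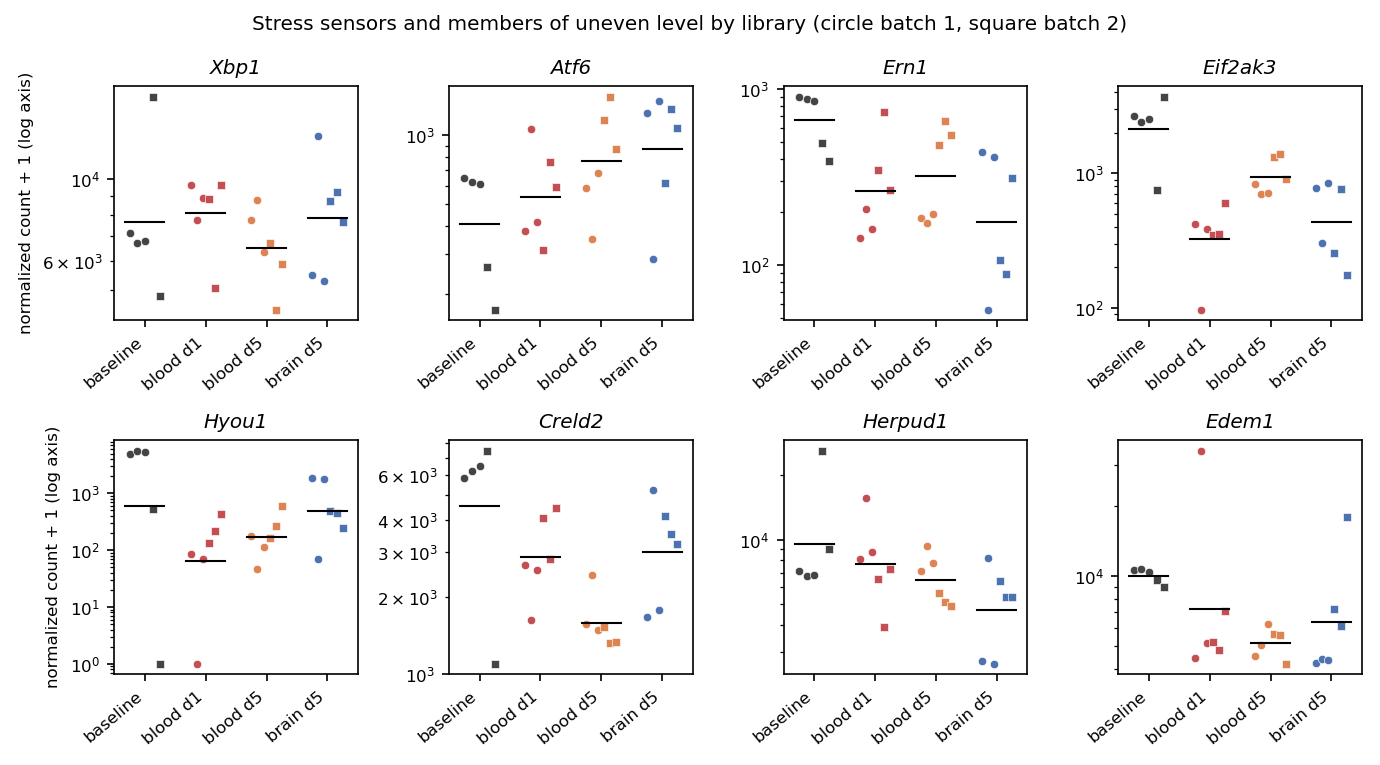
Normalized count + 1 on a log axis (y) of the 4 sensors and factors and of 4 members with uneven libraries, in each library by group (x), circles for batch 1, squares for batch 2 and a line at the geometric mean. Eif2ak3 is lowest in blood on day 1 (96.0 to 603), Hyou1 is listed at 0 in baseline replicate 5 and blood day 1 replicate 2, and Edem1 in blood day 1 replicate 2 stands at 34694.

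Members that hold ER stress response element I moved as follows. Of these 8, 5 fell on day 1, 7 fell on day 5 (all but Syvn1), 1 fell in brain against the baseline, and 6 were higher in brain than in blood on day 5. Members without the element in the window fell too, among them Pdia3, P4hb and Dnajb9. Of the 8 members with a pair of heat shock units, 1 rose and 3 fell in blood on day 1. On day 5, 1 rose and 2 fell. In brain, 4 rose and 1 fell against the baseline. Against blood on day 5, 5 were higher and 0 lower in brain. Hspd1 and Hspe1, both among the 8, share the same site. Over all genes tested, 18.1% rose and 14.0% fell on day 1, and 19.6% rose and 11.4% fell on day 5. In brain 37.5% rose and 11.7% fell against the baseline, and 33.6% were higher than in blood on day 5. The counts of members were read off named genes and have no test.

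Per kilobase of exon, Calr was the most abundant member at baseline, with a mean normalized count of 12574 per kb and rank 87 of 19931 genes. Hsp90ab1 (12145 per kb, rank 90) and Pdia3 (10859, rank 96) followed closely, and differed from it by less than its spread between libraries. In blood on day 5 Calr stood at rank 433 with 2415 per kb, and Hsp90ab1 was the most abundant member, at 4553 per kb and rank 202. In brain Pdia3 (8859.6 per kb, rank 95) and Hsp90ab1 (8473, rank 96) led. At the other end, Hspa1b moved from rank 11704 at baseline (3.63 per kb) to 2916 in brain (456 per kb), and Hspb1 from 13640 (0.761 per kb) to 3224 (405 per kb).

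Summed over all 35 members, the share of the normalized total was 1.33% ± 0.310 at baseline (SD, n = 5), 0.729% ± 0.228 in blood on day 1 (n = 6), 0.628% ± 0.0707 on day 5 (n = 6) and 0.910% ± 0.0601 in brain (n = 6). The baseline ran from 1.53 to 1.58% in batch 1 and was 1.10 and 0.896% in batch 2, so its lowest library lay within the range of blood day 1 (0.345 to 1.01%) and of brain (0.856 to 1.03%). Every day 5 blood library (0.550 to 0.732%) was below every brain and every baseline library. Disulfide isomerases took 0.319% at baseline and 0.148% in blood on day 5, and lectin chaperones 0.191 and 0.0511%. Sensors and factors took a near-even 0.0494, 0.0441, 0.0471 and 0.0396% in the 4 groups, with overlapping ranges. That sum mostly follows Xbp1, with a baseline mean of 8422 against 2418 for Eif2ak3, 703 for Ern1 and 463 for Atf6. It does not show the falls of Eif2ak3 and Ern1.

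**Figure D5:**
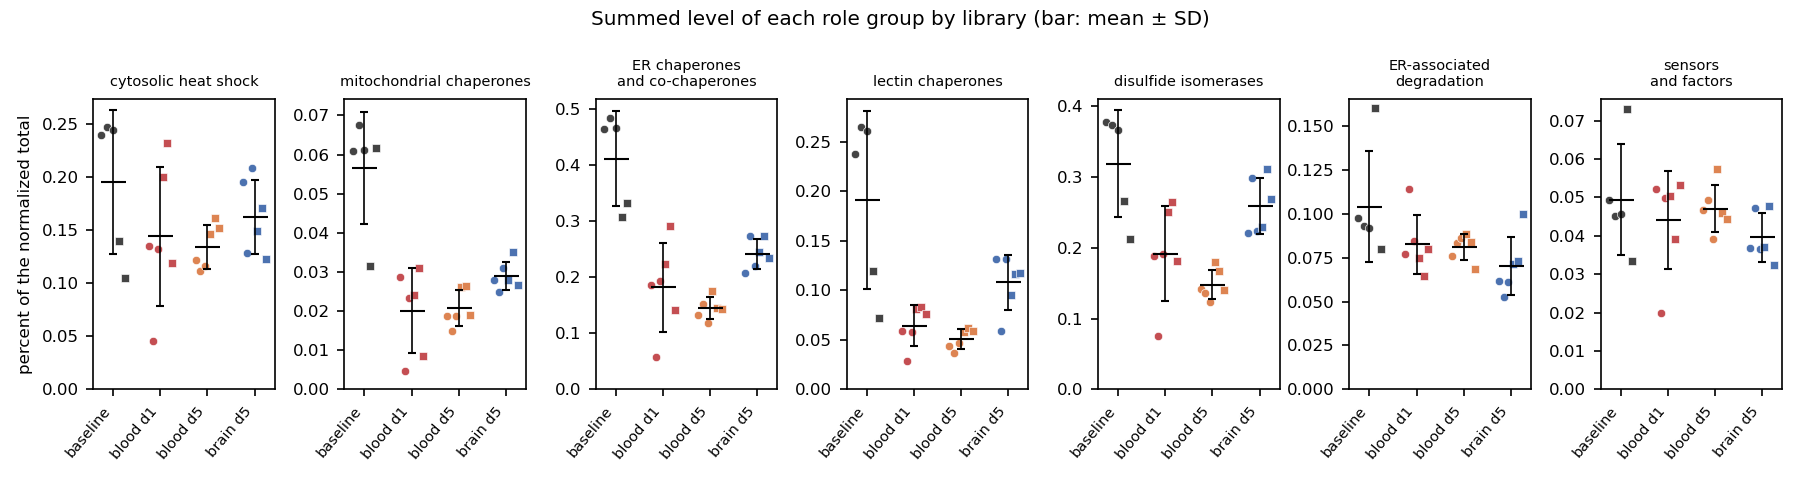
Percent of the normalized total (y, from 0) taken by each role group in every library by group (x), circles for batch 1 and squares for batch 2, with the mean and its SD as bars. ER chaperones are highest at baseline (0.307 to 0.485%), above every other library, which run from 0.208 to 0.274% in brain, 0.057 to 0.291% in blood on day 1 and 0.119 to 0.176% in blood on day 5.

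Genes of the same pathways outside the 38 were counted from lists chosen with earlier results of these data known. Over all genes tested, 18.1% rose and 14.0% fell on day 1, and 19.6% rose and 11.4% fell on day 5. In brain 37.5% rose and 11.7% fell against the baseline. Against blood on day 5, 33.6% were higher and 14.3% lower in brain. Of 20 tested genes of ER folding and degradation, 9 fell and 1 rose on day 1, 11 fell and 1 rose on day 5, 6 fell and 2 rose in brain, and 7 were higher and 0 lower in brain than in blood on day 5. Ero1l, the oxidase that recharges disulfide isomerases, fell furthest of those in all 3 groups, from a mean of 14300 at baseline to 563, 450 and 570, at -4.71 (SE 0.312, adjusted p = 1.43e-10), -4.90 (0.312, 6.61e-11) and -4.57 (0.312, 2.63e-11). Sil1, an exchange factor of BiP, fell in blood, at -1.92 (0.000124) and -2.09 (3.99e-05), and was 2.25 (3.31e-06) higher in brain than in blood on day 5. Of 12 genes of the integrated stress response, 6 fell and 2 rose on each day in blood, and 5 fell and 2 rose in brain. PERK shares this response with other kinases, which are on the list, so the counts are not specific to PERK. Trib3, a pseudokinase induced by this response, fell from a mean of 3030 to 64.9, 40.9 and 147, at -6.28 (3.88e-05), -6.45 (2.57e-05) and -4.18 (0.00126). Atf3, a stress-induced factor that is also an immediate early gene, rose by 3.76 (0.00322) in blood on day 5 and by 7.47 (4.42e-07) in brain. These p-values are from the same limma fit over all genes.

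Of 17 tested co-chaperones of HSP70 and HSP90, 2 rose and 2 fell on day 1. On day 5, 1 rose and 2 fell. In brain 3 rose and 2 fell, and 4 were higher and 0 lower than in blood on day 5. In these 4 comparisons the shares of all genes called higher were 18.1, 19.6, 37.5 and 33.6%. The shares called lower were 14.0, 11.4, 11.7 and 14.3%. Cryab, a small heat shock protein abundant in glia, had a mean of 2.71 at baseline, 277 and 40.7 in blood and 10900 in brain, a log2 difference of 12.4 in brain (SE 1.07, adjusted p = 1.26e-09). Hspb8, a small heat shock protein that works with Bag3, had means of 1.10 at baseline, 4.90 in blood on day 5 and 3530 in brain, a difference of 11.2 (0.975, 1.54e-09). Its baseline and day 5 blood means lie below the count that the filter for the test asks for. As with Hspb1, the brain values of Hspb8 helped it enter the test, and its p-value is no separate support for them. Whether Cryab would have entered without its brain values was not tested. The cytosolic chaperonin CCT had 3 of 7 subunits lower on each day in blood, 1 higher on day 1, and 2 lower in brain, such as Cct4 at -0.90 (0.004) on day 1. Of 5 further mitochondrial genes, 0 rose and 1 fell on each day in blood, and 1 rose and 1 fell in brain. Against blood on day 5, 2 were higher and 0 lower in brain. The protease Lonp1 fell in all 3 groups, at -1.68 (2.87e-05), -1.36 (0.000304) and -0.95 (0.00424), while Dnaja3 rose in brain by 0.97 (0.000909). Of 6 genes around ATF6 and IRE1, 2 rose on each day in blood and 3 in brain, among them Atf6b, a relative of Atf6, by 1.04 (0.0194), 1.39 (0.00221) and 1.41 (0.00099).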

How the data were processed

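RNA-seq libraries were made by poly-T selection and random-hexamer priming and read as 150-base pairs, per the labels' protocols. The submitters' processing notes name fastp, HISAT2 2.0.5 and mm10, while no source used here gives the counting tool, the annotation or the strand setting. The deposited signal is a normalized count per gene, scaled by the authors. Whole reads could be recovered from it for 100% of values (tolerance 0.1 read). Group and batch come from the labels.

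Values were tested as log2(value + 1) with limma 3.58.1 (R 4.3.3, trend and robust variance), on all 23 libraries with group and batch in the model. Genes with at least 10 in at least 5 libraries entered, and p was adjusted by Benjamini-Hochberg over all of them, with a threshold of 0.05. The scale understates changes of low genes. Alternatives were pseudocounts of 0.5 and 5, no filter, equal library totals, edgeR 4.0.16 on recovered reads, a replicate block, no batch, each batch alone, only the groups compared, and libraries left out or averaged. Whether the replicate numbers mark pairs could not be shown, and a replicate block was used only as an alternative. The test was checked on simulated data.

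The members, roles and lists were chosen with earlier results of these data known. All values were given for the called members with the largest difference per role group and for the sensors, and up to 3 called genes were named per further list. Coordinates are from GENCODE M21 (GRCm38) and promoter sequences from RefSeq (GRCm38.p6).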

Additional observations from a re-analysis of the deposited data

Results flagged for a closer look

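In 25 of 140 tests of a member in a group, 1 library lay far from the rest of its group by Dixon's criterion on the log2(value + 1) scale, which chance meets in about 1 in 20 groups of independent libraries. Of the 25, 15 were baseline replicate 4 or 5. Baseline replicates 1 to 3 were close to each other (chi-square per degree of freedom up to 12.5, against 875 or more to replicates 4 and 5), so that rate does not apply to the baseline. Baseline replicate 4 was low for Hspa4 (1319 normalized counts, others 3460 to 4222), Hspd1 (1987), Hspe1 (831), Hsph1 (657), Hspa5 (27580), Hsp90b1 (19487), Canx (5287) and Eif2ak3 (756). The same library was high for Bag3 (633) and Herpud1 (25900, others 6787 to 9058).

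Baseline replicate 5 was low for Pdia6 (7652), Sdf2l1 (1022), Creld2 (1099, others 5817 to 7449), Syvn1 (441) and Hyou1, which was listed at 0. Blood day 1 replicate 2 was high for Hspb1 (12.4) and Edem1 (34694, others 4477 to 7077), low for Eif2ak3 (96.0), and listed at 0 for Hyou1.

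Among other libraries, P4hb was high in blood day 1 replicate 6 (17551) and Creld2 in blood day 5 replicate 2 (2437). Xbp1 was low in blood day 1 replicate 5 (5066). In brain, Canx (3693) and Sel1l (1968) were low in replicate 2, and Edem1 was high in replicate 6 (18002).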

How the results depend on the processing

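In batch 2 alone 5 members were called in blood on day 1, 8 in blood on day 5 and 5 in brain, each against the baseline. Averaging the closest libraries gave 11 on day 1. In brain against the baseline, edgeR with TMM scaling called 18, and leaving out the 4 libraries that stood apart called 19. Between the blood days, fitting only those groups called 1. Hsp90ab1 in blood on day 1 changed direction in batch 2 alone (0.15, adjusted p = 0.884 in limma). The cause was not tested. Leaving out each library in turn gave 17 to 21 calls in blood on day 1, 17 to 20 on day 5, 9 to 13 in brain, 0 to 0 between the blood days and 18 to 21 in brain against blood on day 5. With a replicate block the counts were 18, 17, 11, 0 and 21. With group and batch means removed, same-numbered libraries of different groups correlated at -0.104 to 0.189 (33 pairs). Libraries of other numbers in the same batch correlated at -0.167 to 0.120 (66 pairs). Low correlation between groups from unlike sources cannot show whether the numbers mark pairs. Of 64 called member results, 59 were kept with each library left out and 23 under every alternative and every omission. Element II was in 2 member windows, and in 1 when only bases before the start were searched. Protein features were not run.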
